A study of Mus musculus with 9 samples.

Results

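The collagen genes of the embryonic mouse midbrain were examined in 9 RNA-seq libraries, as a reading of the connective tissue and vessels that a brain dissection carries with it. The members were the genes annotated as protein coding in GRCm38 whose symbol has the form Col, number, a, number, which gave 44 of the 51912 genes in the table. They lie on 15 chromosomes. By the structure of their proteins, 11 are fibrillar, 6 are basement membrane type IV, 3 belong to the basement membrane zone (multiplexins and the anchoring fibril), 6 form beaded filaments, 9 are fibril-associated, 3 form short-chain networks, 4 are transmembrane and 2 were put in none of these classes.

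The libraries came from E14.5 midbrains of C57Bl/6 mice, 3 each for Nkx2.9+/+, Nkx2.9LacZ/+ and Nkx2.9LacZ/LacZ embryos, and each library pooled 2 midbrains of one genotype. In the LacZ allele the first exon of Nkx2.9, a homeobox gene of the ventral neural tube, is replaced by LacZ. No other allele or treatment was named. The title of the series speaks of cortical material, while its design text, its sample labels and the methods say midbrain, which is the name used here. The values are normalized counts, which are reads per gene divided by one size factor per library. The libraries are numbered here by their place in the table, 1 to 3 for Nkx2.9LacZ/LacZ, 4 to 6 for Nkx2.9LacZ/+ and 7 to 9 for Nkx2.9+/+, and a number says nothing about pairing. The methods say in general that embryos came from few litters, without saying which library came from which, so libraries may share a litter and the p-values measure the spread between these libraries.

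Every collagen is a trimer of chains wound around each other, and each chain carries glycine at the start of every triplet of amino acids along the helix. Most fibrillar collagens have one long unbroken helix. They assemble into fibrils, which in the head are made mainly by fibroblasts of the meninges, skull and vessel walls. Type IV chains have a helix with many breaks and form the sheet of the basement membrane, which in brain lies around capillaries and under the pia. Fibril-associated collagens sit on the surface of fibrils, beaded filaments lie between fibrils and basement membranes, and transmembrane collagens are held in the plasma membrane.

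The difference between an unbroken and a broken helix can be read in the genes themselves. The 4 stretches below are coding exons of 54 bases, shown because each holds 6 whole triplets and because this exon length recurs through the fibrillar genes. They are read in GRCm38 on the coding strand, and capitals mark the glycine codon that opens each triplet. They lie in coding exon 8 of Col1a1 (chr11:94939904-94939957, plus strand), coding exon 8 of Col1a2 (chr6:4515481-4515534, plus), coding exon 6 of Col3a1 (chr1:45325360-45325413, plus) and coding exon 6 of Col2a1 (chr15:97998545-97998598, minus).
Col1a1: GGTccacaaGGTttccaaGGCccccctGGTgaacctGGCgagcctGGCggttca
Col1a2: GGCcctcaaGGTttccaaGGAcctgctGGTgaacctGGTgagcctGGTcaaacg
Col3a1: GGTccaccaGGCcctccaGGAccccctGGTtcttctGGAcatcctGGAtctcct
Col2a1: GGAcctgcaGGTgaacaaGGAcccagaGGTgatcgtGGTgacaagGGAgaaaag

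In the type IV genes the triplets stop and start again. The next stretches are shown for that break, each with 4 triplets on either side of it. The break has 2 extra codons in coding exon 21 of Col4a1 (chr8:11235132-11235209, minus) and 4 in coding exon 19 of Col4a2 (chr8:11415955-11416038, plus). Capitals again mark the glycine codons, and the longest run of lower case holds the rest of the triplet before the break and then the extra codons.
Col4a1: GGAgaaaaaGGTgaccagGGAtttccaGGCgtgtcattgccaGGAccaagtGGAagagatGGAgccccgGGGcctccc
Col4a2: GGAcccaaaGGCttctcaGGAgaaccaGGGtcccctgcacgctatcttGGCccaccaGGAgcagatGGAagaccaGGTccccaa

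Over the longest coding transcript of each gene, the longest run of glycine triplets had a median of 338 triplets among the 11 fibrillar genes and a range of 216 to 344. Col24a1 and Col27a1 made up the lower end with 216 and 217. Their triplets lay in 3 runs of 10 or more that held 327 and 329 in all, against 2 runs with 353 to 359 in the other fibrillar genes. Among the 6 type IV genes the run was 39 to 66 triplets long. The shortest run of all members was 23 triplets, in Col26a1, an unclassed collagen with little triple helix. Exons with a length that is a multiple of 9 bases made up 74.6 to 88.5% of the coding exons of fibrillar genes and 38.5 to 55.6% of those of type IV genes. Col1a1 had 21 exons of exactly 54 bases among 51, and Col4a1 had 2 among 52.

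**Figure D1:**
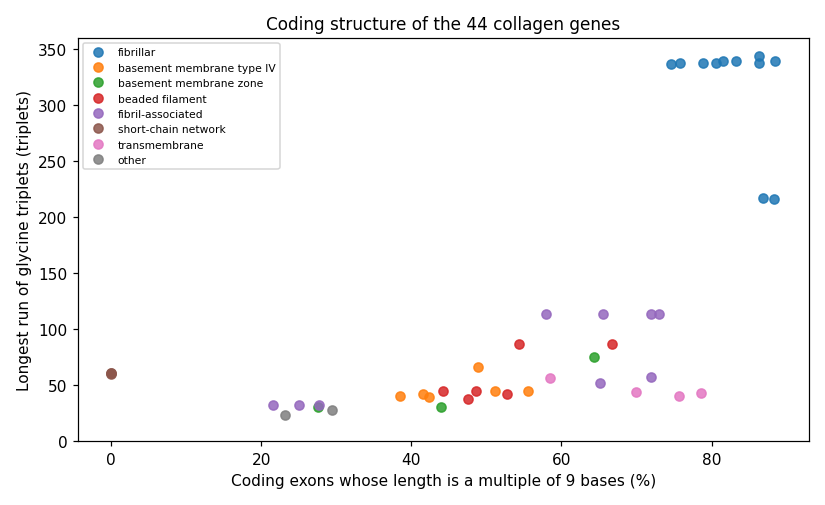
The longest run of glycine triplets in the coding sequence (y axis, triplets) against the percentage of coding exons whose length is a multiple of 9 bases (x axis), with 1 point for each of the 44 collagen genes, coloured by class. The fibrillar genes stand apart at 216 to 344 triplets, and no gene of another class has a run above 113.

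The type IV genes lie in head-to-head pairs. Col4a1 and Col4a2 start on opposite strands of chromosome 8, Col4a4 and Col4a3 on chromosome 1 with 72 bp between their starts, and Col4a6 and Col4a5 on the X chromosome with 1309 bp. The starts of Col4a1 and Col4a2 overlap, and the 22 bases that lie between and include them (RefSeq, GRCm38.p6, chr8:11312805-11312826, written on the plus strand) are shown because they belong to both genes.
Col4a1 and Col4a2: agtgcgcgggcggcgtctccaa

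In the 300.0 bases around the starts, 250 before and 50 after, 35 of the 44 collagen genes had a RefSeq window, 38 windows in all. On both strands, GGGCGG was found in 60.5% of these windows against 35.7% of all 32851 windows. CCAAT was found in 34.2% against 37.4%, and TATAAA in 13.2% against 13.6%. These are letter matches in a window and were not tested.

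The reads on genes numbered 1692963 to 5942192 per library. The 44 genes took 1302 to 4418 of these reads, or 0.0636 to 0.0793%. One read was worth 2.59 normalized counts in library 7, the shallowest, and 0.702 in library 8, the deepest, so low values of library 7 are coarse. Library 4, with 2584074 reads, was the next shallowest. No member was at 0 in all libraries, 38 had a read in every library, and 37 had a mean normalized count of at least 5 and were tested. The other 7, Col4a3, Col4a4, Col6a5, Col9a1, Col8a2, Col10a1 and Col13a1, were under that minimum, and Col13a1 had 2 reads in all. For 13 members an exon overlaps an exon of another gene, among them Col4a1 with Col4a2, and the strand setting of the counting is not given in the sources used here, so reads there may be split.

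Type IV collagen was the largest class per length of exon. Levels between genes are given per kilobase of annotated exon. Type IV held 40.9% of all collagen counts per kb, with 36.5 to 44.5% in single libraries. The fibrillar class held 27.7%, with 25.5 to 32.8%, and the fibril-associated class held 15.5%. The transmembrane class held 6.03%, the basement membrane zone 4.47%, beaded filaments 2.36%, the unclassed genes 1.85% and short-chain networks 1.15%. This order depends on the length used. Per kb of the longest coding transcript, type IV held 30.0%, the fibrillar class 30.1% and the transmembrane class 17.4%.

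Few genes made up most of the signal. The 5 highest members held 59.1% of collagen counts per kb, and Col4a1 and Col4a2 held 38.5%. Their chains join in the common network of the basement membrane. Col4a1 had a mean of 78.0 normalized counts per kb and Col4a2 of 73.1. The ratio of Col4a1 to Col4a2 per kb was 0.955 at the lowest, 1.06 at the median and 1.297 at the highest over the 9 libraries, all per kb of exon. The ratio of their means was 1.07 per kb of exon and 1.17 per kb of transcript.

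Col4a1 read 659.5, 586 and 489 normalized counts in the Nkx2.9+/+ libraries, 704, 626 and 536 in the Nkx2.9LacZ/+ libraries and 464, 584 and 591 in the Nkx2.9LacZ/LacZ libraries. Col4a2 read 519.8, 544 and 437, then 631, 428 and 449, then 399, 469 and 481. The 3 genotypes overlapped for both genes. Their spread over the 9 libraries was a CV of 13.3% for Col4a1 and 14.7% for Col4a2, against 4.34% and 4.75% from counting alone.

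The other type IV chains were lower. Col4a5, a chain of specialised basement membranes, had 7.98 normalized counts per kb, and Col4a1 exceeded it by 7.99 to 13.2 times. Col4a6, which pairs with Col4a5 in smooth muscle basement membrane, had 0.81 per kb. Col4a4 and Col4a3, known from the filter of the kidney, had 0.42 and 0.11.

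Among fibrillar genes the highest was Col2a1, the collagen of cartilage and of the embryonic notochord, with 38.4 normalized counts per kb. Next came Col5a2 with 14.3, Col11a2 with 11.4 and Col11a1 with 10.6, chains of thin heterotypic fibrils. Type III and type I collagen, the main fibrils of loose connective tissue, were lower, with 9.15 per kb for Col3a1, 8.45 for Col1a1 and 5.08 for Col1a2. Per kb, Col4a1 exceeded Col1a1 by 4.91 to 19.99 times over the libraries and Col3a1 by 4.88 to 16.2 times. Col2a1 exceeded Col1a1 by 3.23 to 9.23 times. These ratios are per kb of exon, and part of this order turns with the length. Per kb of the longest coding transcript, Col2a1 stayed the highest fibrillar gene with 69.6 and Col5a2 followed with 20.7, but Col11a1 had 17.6, Col3a1 16.1 and Col11a2 14.48. The ratio of the means of Col2a1 and Col1a1 was 4.55 per kb of exon and 7.45 per kb of transcript, that of Col4a1 and Col3a1 was 8.52 and 5.45, and that of Col4a1 and Col1a1 was 9.23 and 9.41. The ratio of Col1a1 to Col1a2, whose chains form type I collagen together, was 1.66 per kb of exon and 0.792 per kb of transcript, so which chain is the higher depends on the length used.

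Of the fibril-associated genes, Col9a2 had 23.2 normalized counts per kb and Col9a3 17.1, both chains of type IX collagen, which coats type II fibrils. The remaining chain, Col9a1, had 0.97, and Col9a3 exceeded it by 9.11 to 35.1 times in the 8 libraries with a Col9a1 read. Col22a1, a collagen of tissue junctions, had 7.99 and Col12a1, which sits on type I fibrils, had 3.31. The transmembrane class apart, the highest of the other classes per kb of exon were Col18a1 with 11.2, a multiplexin of vessel basement membranes, and Col26a1 with 5.43. Col8a1 with 3.21, a network collagen of vessel walls, and Col6a1 with 2.73 were the highest of theirs. Col15a1, a close relative of Col18a1, had 5.11. Col6a3 had 2.41, Col6a2 2.07 and Col6a4 0.91 in the beaded filament class, where per kb of transcript Col6a2 had 4.37, Col6a1 2.92 and Col6a3 2.86. Col7a1, the anchoring fibril of skin, had 1.27, and the unclassed Col28a1 had 1.85. Of the short-chain and transmembrane genes, Col23a1 had 3.12, Col17a1 1.06, Col8a2 0.76, Col10a1 0.54 and Col13a1 0.040.

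Col25a1, a transmembrane collagen made by neurons, was the fifth member that carried most of the signal together with Col4a1, Col4a2, Col2a1 and Col9a2. It had 19.5 normalized counts per kb of exon but 96.0 per kb of its longest coding transcript, where Col4a1 had 88.0, so its rank among the members rests on the length. Col25a1 read 279, 286 and 217 normalized counts in Nkx2.9+/+, 142, 365 and 248 in Nkx2.9LacZ/+, and 255, 259 and 216 in Nkx2.9LacZ/LacZ. The 2 extremes were both Nkx2.9LacZ/+ libraries.

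**Figure D2:**
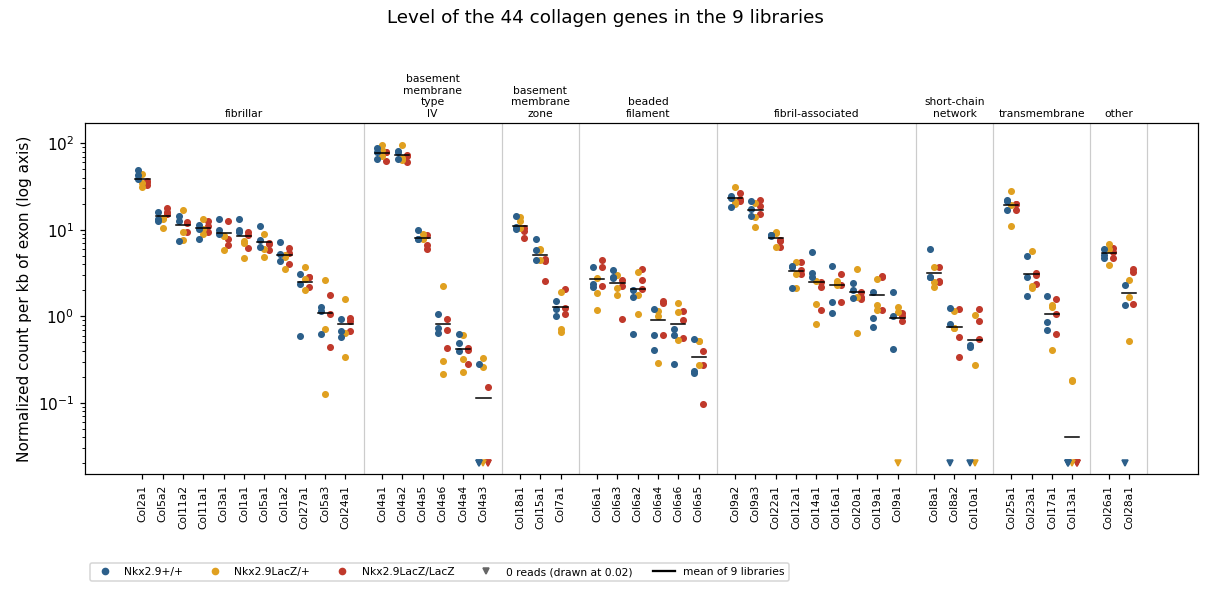
Normalized count per kb of exon (log axis) of the 44 collagen genes in the 9 libraries, grouped by class, with points coloured by genotype, a line at the mean and triangles for 0 reads. Col4a1 and Col4a2 lie highest at means of 78.0 and 73.1 per kb, and the genotypes overlap for most genes.

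The label of meninges and vessels was then set beside marker genes of those tissues. Markers of vessels were well above the floor of 3 reads. The summed normalized count of 12 endothelial genes was 1031 to 1256 over the libraries, led by Slc2a1, Kdr and Flt1, and that of 12 pericyte and mural genes was 1096 to 1302, led by Notch3, Rgs5 and Pdgfrb. Slc2a1 alone had a mean of 244 and Notch3 of 365, and reads of these genes from other cell types were not separated. Most markers of meningeal fibroblasts were near the floor. The 14 genes of their list summed to 31.0 to 71.7, led by Foxc1 with a mean of 19.5. Of the 14, 3 (Foxc1, Dpp4 and Dcn) passed the minimum of 5, and Aldh1a2, an enzyme of retinoic acid synthesis in the meninges, had 1 read in all. Vessels were thus clearly present by these markers, while few of the listed meningeal markers passed the minimum, and the 44 genes are called collagen genes here. A low sum of this list does not measure how much of the meninges was in the tissue.

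Markers of other tissues that make collagen were also low. The 11 cartilage and bone genes summed to 26.9 to 44.8 normalized counts, with Matn1 and Matn3 at 0 in every library and Acan, the main cartilage proteoglycan, at 0 to 4.6. The source of Col2a1 in this tissue was not tested. The 8 skeletal muscle genes summed to 59.5 to 142.8, led by Myh8, Acta1 and Myh3. The 8 choroid plexus genes summed to 29.3 to 82.8, led by Otx2os1, Kl and Folr1. The sums of 8 genes each were 95.6 to 132.0 for microglia (Csf1r, C1qc and P2ry12), 1434 to 2169 for red blood cells (Hba-a1, Hbb-bs and Hbb-y), 3635 to 4406 for neural progenitors (Vim, Fabp7 and Slc1a3) and 26403 to 33093 for neurons (Map2, Dcx and Tubb3).

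Whether Col1a1, Col3a1, Col4a1 and Col4a2 followed these markers from library to library was tested in 12 relations over the 9 libraries, on log2 values. None passed. The closest was Col4a2 with the pericyte and mural sum, with Pearson's r of 0.63 (exact permutation p = 0.0678, adjusted 0.642) and Spearman's rho of 0.55 (exact permutation p = 0.133, adjusted 0.982). Without libraries 4 and 8, farthest from the median of that sum, r was -0.029 over a narrower range of the sum. Leaving out 1 library gave r of 0.38 without library 4 to 0.77 without library 7, with none under an adjusted p of 0.05, and within genotypes r was 0.60. Col4a1 with the endothelial sum gave r of 0.50, and Col1a1 and Col3a1 with the meningeal sum gave -0.19 and -0.13. The first was 0.22 without library 4 and 0.73 without library 7. The sign of the others turned with single libraries, from -0.58 without library 9 to 0.21 without library 4 for Col1a1 and from -0.46 to 0.22 without the same libraries for Col3a1. Without libraries 4 and 7, farthest from the median of the meningeal sum, r was 0.57 for Col1a1 and 0.56 for Col3a1. Without libraries 4 and 5, farthest for the endothelial sum, r of Col4a1 was 0.020. These values without the farthest libraries were not tested. In bulk tissue, fewer cells of a type and less RNA per cell cannot be told apart.

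**Figure D3:**
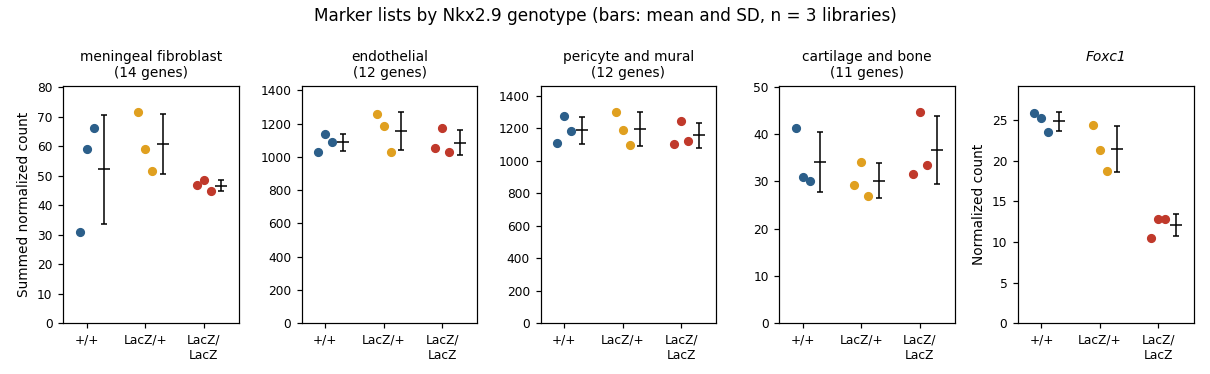
Summed normalized counts of 4 marker lists and the normalized count of Foxc1 by genotype, with 1 point per library and the mean and SD of 3 libraries beside them. Endothelial and pericyte and mural sums lie at 1031 or above in every library, and meningeal and cartilage sums at 71.7 or below. Foxc1 is lower in the Nkx2.9LacZ/LacZ libraries but does not pass adjustment. The other meningeal markers tested, Dpp4 and Dcn, are not lower there than in Nkx2.9+/+.

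The deleted gene could not serve as a check of the genotypes. Nkx2-9 had 28 reads over the 9 libraries, 0 to 7 in each, with means of 0.96 normalized counts in Nkx2.9+/+, 3.08 in Nkx2.9LacZ/+ and 3.69 in Nkx2.9LacZ/LacZ. It was thus not lower in the mutants, and the counts are per gene, so reads of the exons the allele keeps cannot be separated from those of the exon it lacks. The genotypes below are those on the labels.

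The summed count of all collagen genes varied little, from 2692 to 3367 normalized counts with a CV of 7.5% against 1.90% from counting. The fibrillar sum was 1097 ± 94.1 in Nkx2.9+/+, 952 ± 95.9 in Nkx2.9LacZ/+ and 1013 ± 100.3 in Nkx2.9LacZ/LacZ (SD, n = 3 each). The type IV sum was 1149 ± 139, 1193 ± 191 and 1054 ± 116. Both sums overlapped between the genotypes. Of the 8 class sums, 1 did not overlap between genotypes. The basement membrane zone sum, mostly Col18a1, was 100.6 to 108.4 in Nkx2.9LacZ/LacZ, below the 119 to 143 of Nkx2.9+/+ and the 118 to 156 of Nkx2.9LacZ/+. Of its 3 members, 0 were without overlap against Nkx2.9+/+, where 9.52% of all genes were, and 1, Col18a1, against Nkx2.9LacZ/+, where 8.71% were. The highest Nkx2.9LacZ/LacZ value of Col18a1 was 73.2 and its lowest Nkx2.9LacZ/+ value 73.4. With 3 members the count is too small to read against those shares, and no such share was computed for sums. Single tested genes varied with a CV of 13.3 to 75.1% and a median of 29.6%, and for 12 of the 37 it was under 1.5 times that of counting.

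No collagen gene passed the test across genes in any comparison. With limma on log2(normalized count + 1) and adjustment over all 16993 genes tested, 0 of 37 collagen genes had an adjusted p under 0.05 between any 2 genotypes, and the same held for all genes (0% called in each of the 3 comparisons). EdgeR and DESeq2 on the recovered reads also called 0. The unadjusted calls and the genes without overlap that follow are values to set beside that result.

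Between Nkx2.9LacZ/LacZ and Nkx2.9+/+, which asks what loss of Nkx2.9 does to these genes, 0 of 37 collagen genes had an unadjusted limma p under 0.05, against 2.6% of all genes, and edgeR and DESeq2 also gave 0. This count was 6 without library 8, the deepest Nkx2.9+/+ library, and 3 without library 2. The share of all genes called in those smaller fits was not computed, so these counts have no share to be read against. The median difference was -0.016 on the log2 scale, against 0.011 for all genes, with 18 genes higher and 19 lower. Its sign turned with single libraries, from -0.087 without library 3 to 0.081 without library 1. For 6 genes (16.2%) the libraries did not overlap, against 9.52% of all genes. With 3 libraries against 3, the smallest p of the exact permutation test is 0.1, and that was its value for each of the 6.

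5 of these 6 were lower in Nkx2.9LacZ/LacZ. Col2a1 read 455, 354 and 398 normalized counts in Nkx2.9+/+ and 306, 331 and 342 in Nkx2.9LacZ/LacZ (log2 difference -0.30, SE 0.15, unadjusted limma p = 0.0600, exact permutation p = 0.1). Every mutant library lay below every wild-type one, but the 95% interval of -0.61 to 0.014 held 0. Col1a1 read 62.1, 64.6 and 87.6 against 40.6, 61.3 and 57.5 (-0.42, SE 0.25, unadjusted limma p = 0.112, exact permutation p = 0.1), so the groups were apart by less than 1 normalized count, and the difference was -0.24 without library 1. Col14a1, a fibril-associated collagen of soft tissue, read 38.8, 22.5 and 19.9 against 17.3, 8.23 and 15.5 (-0.94, SE 0.46, unadjusted limma p = 0.0576, exact permutation p = 0.1).

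Of the 5 beaded filament genes tested, 4 had a higher mean log2 value in Nkx2.9LacZ/LacZ and 1 a lower one, with a median difference of 0.61 and no unadjusted limma p under 0.05. Col6a3, the long chain of type VI collagen, read 41.4, 33.0 and 33.9 in Nkx2.9+/+ and 11.3, 31.1 and 26.6 in Nkx2.9LacZ/LacZ (-0.73, SE 0.36, unadjusted limma p = 0.0585, exact permutation p = 0.1). Its partner chain Col6a2 read 5.17, 16.8 and 14.0 against 17.3, 21.95 and 29.2 (0.98, SE 0.48, unadjusted limma p = 0.0581, exact permutation p = 0.1). Neither passed, and each value leaned on 1 library. The difference of Col6a3 was -0.31 without library 1, and that of Col6a2 was 0.51 without library 7, where it had 2 reads. The last of the 6, Col22a1, read 77.6, 80.0 and 79.5 against 70.0, 57.6 and 67.8 (-0.28, SE 0.20, unadjusted limma p = 0.187, exact permutation p = 0.1). Under the minimum, Col10a1, a collagen of growth plate cartilage, also did not overlap, with 17 reads in all libraries.

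Col4a1 and Col4a2, the collagen genes with the highest counts, did not differ detectably between these genotypes. The difference was -0.079 for Col4a1, with a 95% interval of -0.39 to 0.23, and -0.15 for Col4a2, with -0.48 to 0.18. Col25a1 differed by -0.093 (-0.62 to 0.43), Col3a1 by -0.28 (-0.81 to 0.24) and Col1a2 by -0.093 (-0.62 to 0.43). Leaving out 1 library moved each of these by over 1.5 times. Col3a1 was -0.54 without library 2 and -0.097 without library 3, Col25a1 was -0.22 without library 9 and -0.011 without library 3, and Col4a2 was -0.25 without library 9 and -0.068 without library 1. Col4a1 was -0.19 without library 9 and 0.034 without library 1, and Col1a2 was -0.25 without library 8 and 0.10 without library 9. The width of these intervals does not show equal levels.

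**Figure D4:**
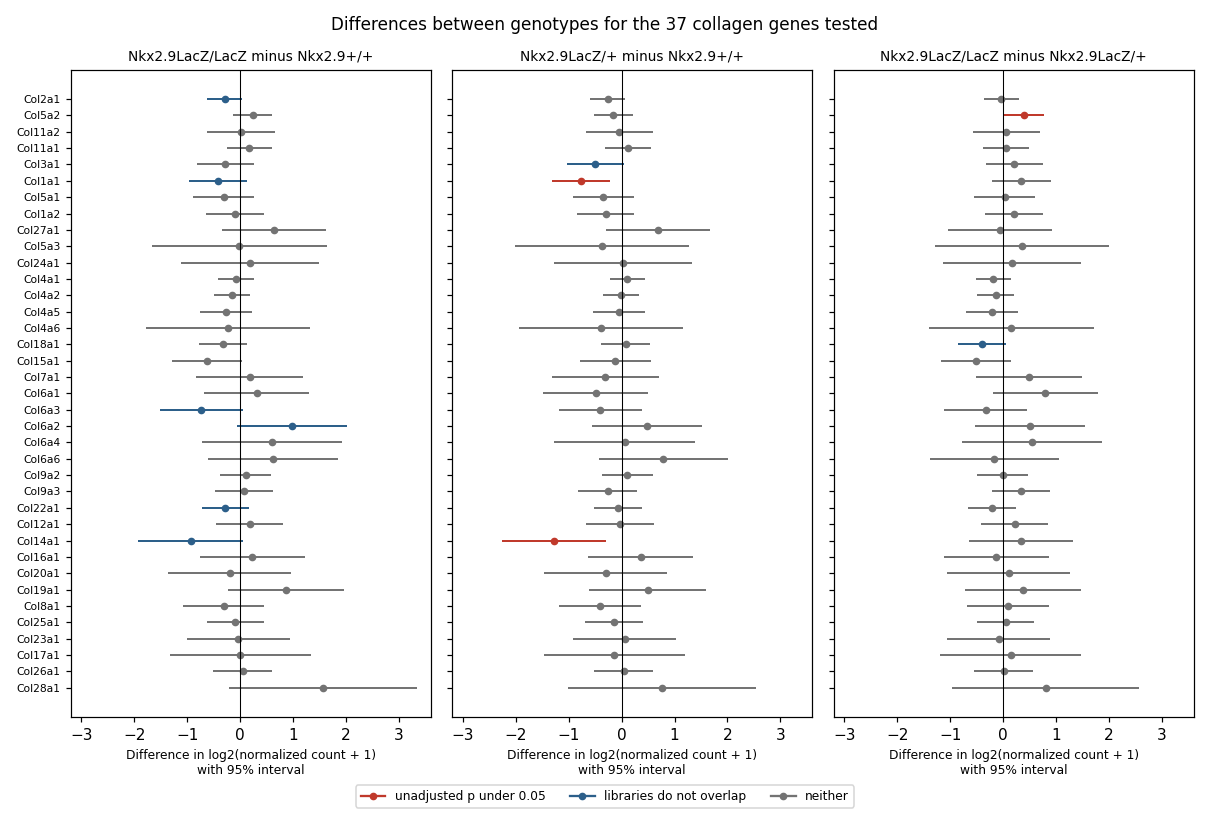
Difference in log2(normalized count + 1) with its 95% interval for the 37 collagen genes tested, for Nkx2.9LacZ/LacZ minus Nkx2.9+/+, Nkx2.9LacZ/+ minus Nkx2.9+/+ and Nkx2.9LacZ/LacZ minus Nkx2.9LacZ/+. The 3 genes with an unadjusted p under 0.05 (red) are Col1a1 and Col14a1 in the second panel and Col5a2 in the third, and none passes adjustment.

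Between Nkx2.9LacZ/+ and Nkx2.9+/+, 2 of 37 collagen genes had an unadjusted limma p under 0.05, against 2.78% of all genes, and both were lower in the heterozygotes. The count was 5 without library 8 and 4 without library 4, again with no share of all genes computed for those fits. Col1a1 read 31.0, 46.1 and 48.1 normalized counts in Nkx2.9LacZ/+ against 62.1, 64.6 and 87.6 in Nkx2.9+/+. No library overlapped, and the difference was -0.77 (SE 0.25, 95% interval -1.30 to -0.24, unadjusted limma p = 0.00766, adjusted p = 1.00, exact permutation p = 0.1). Col14a1 read 9.78, 17.9 and 5.71 against 38.8, 22.5 and 19.9, with a difference of -1.28 (SE 0.46, 95% interval -2.25 to -0.31, unadjusted limma p = 0.0132, adjusted p = 1.00, exact permutation p = 0.1).

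Col3a1 was the remaining one of 3 genes (8.11%) without overlap, against 6.91% of all genes. It read 57.0, 83.7 and 84.0 against 98.3, 87.7 and 131.8 (-0.49, SE 0.25, unadjusted limma p = 0.0627, exact permutation p = 0.1). The difference was -0.31 without library 4 and -0.33 without library 9. Col1a2, the partner of Col1a1, overlapped (-0.30, SE 0.25), as did Col2a1 (-0.26, SE 0.15), Col25a1 (-0.14, SE 0.25), Col4a1 (0.11, SE 0.15) and Col4a2 (-0.010, SE 0.15). The median of the 37 genes was -0.070, against -0.0069 for all genes, and when 1 library was left out it ran from -0.22 (library 8) to -0.033 (library 5). Without library 9 the difference of Col1a2 was -0.11 and without library 8 it was -0.46, and that of Col2a1 was -0.16 without library 5 and -0.40 without library 4. The sign of the other 3 turned when 1 library was left out, with ranges of -0.46 to 0.21 for Col25a1, -0.0081 to 0.21 for Col4a1 and -0.18 to 0.095 for Col4a2. Both comparisons share the Nkx2.9+/+ libraries.

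Some marker lists lay lower in the same direction as these genes and others did not. All 5 skeletal muscle genes tested had a lower mean log2 value in Nkx2.9LacZ/+ than in Nkx2.9+/+ (median -0.57) and in Nkx2.9LacZ/LacZ than in Nkx2.9+/+ (median -0.30). Both cartilage and bone genes tested did so too, with medians of -0.52 and -0.37, as did 3 of 4 choroid plexus genes in each comparison, with medians of -0.67 and -0.78. Of these genes 1 had an unadjusted limma p under 0.05, Kl of the choroid plexus in Nkx2.9LacZ/LacZ, against 2.6% of all genes there and 2.78% for Nkx2.9LacZ/+, and none passed adjustment. Of the 12 endothelial genes, 9 had a higher mean log2 value in Nkx2.9LacZ/+ than in Nkx2.9+/+ (median 0.12) and 6 in Nkx2.9LacZ/LacZ (median -0.0029). Of 6 red blood cell genes, 4 were on the higher side in Nkx2.9LacZ/+ (median 0.069) and 1 in Nkx2.9LacZ/LacZ (median -0.085), and of the 3 meningeal genes 2 were in each (medians 0.46 and 0.49). In Nkx2.9LacZ/+ and Nkx2.9LacZ/LacZ in turn, 6 and 5 of 9 pericyte and mural genes were lower (medians -0.094 and -0.16). So were 4 and 4 of 6 microglia genes (-0.22 and -0.25) and 6 and 5 of 8 neural progenitor genes (-0.11 and -0.087). Of 8 neuron genes, 4 and 5 were lower (-0.024 and -0.018). A lean to lower values was thus not particular to tissues that make collagen. The muscle sum was 87.0 to 142.8 in Nkx2.9+/+, 62.0 to 96.2 in Nkx2.9LacZ/+ and 59.5 to 123.5 in Nkx2.9LacZ/LacZ, and the 3 genotypes overlapped for it and for the cartilage and bone and choroid plexus sums. The mean sum over all 11 cartilage and bone genes was 34.1 in Nkx2.9+/+, 30.1 in Nkx2.9LacZ/+ and 36.6 in Nkx2.9LacZ/LacZ. That sum was thus not lower in Nkx2.9LacZ/LacZ. The part of these tissues in the values of the collagen genes was not tested.

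The call for Col14a1 rests on single libraries. Its difference from wild-type was -0.91 without library 6 and -0.99 without library 7, and in both the unadjusted limma p was over 0.05. The difference of Col1a1 ran from -0.88 to -0.57 over the 18 alternatives, and its unadjusted p was under 0.05 in each.

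Between Nkx2.9LacZ/LacZ and Nkx2.9LacZ/+, 1 of 37 collagen genes had an unadjusted limma p under 0.05, against 2.64% of all genes. Col5a2, a chain that sets the width of fibrils, read 154, 173 and 147 normalized counts in Nkx2.9LacZ/LacZ and 129, 102 and 131 in Nkx2.9LacZ/+. The libraries did not overlap, and the difference was 0.39 (SE 0.17, 95% interval 0.042 to 0.75, unadjusted limma p = 0.0305, adjusted p = 0.999, exact permutation p = 0.1). The unadjusted limma p was over 0.05 without library 1, 2 or 5, where the difference was 0.41, 0.33 and 0.28.

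Col18a1, the other of 2 genes (5.41%) without overlap, against 8.71% of all genes, read 67.7, 73.2 and 56.7 against 99.4, 73.4 and 88.1 (-0.39, SE 0.21, unadjusted limma p = 0.0745, exact permutation p = 0.1). The median of the 37 genes was 0.086, against 0.017 for all genes. Its sign turned with single libraries, from -0.065 without library 6 to 0.16 without library 4. The differences were 0.35 for Col1a1, 0.21 for Col1a2, 0.21 for Col3a1, -0.033 for Col2a1, -0.19 for Col4a1, -0.14 for Col4a2 and 0.052 for Col25a1, each with an interval that holds 0. Leaving out 1 library moved each of the 7 by over 1.5 times. Col1a1 was 0.15 without library 4, Col1a2 was 0.042 without library 6, Col3a1 was -0.042 without library 2 and Col4a1 was -0.073 without library 1.

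**Figure D5:**
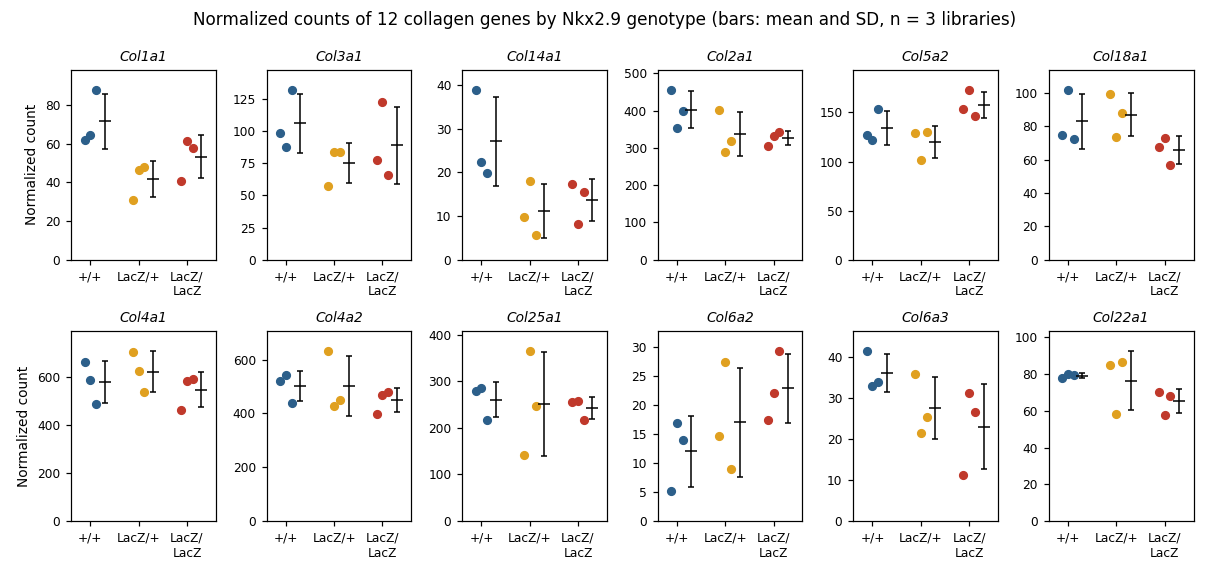
Normalized counts of 12 collagen genes in the 9 libraries by genotype, with 1 point per library and the mean and SD of 3 libraries beside them, on axes that start at 0. Col1a1 is highest in the Nkx2.9+/+ libraries at 62.1 to 87.6, while the genotypes overlap for Col4a1, Col4a2 and Col25a1.

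Of the 3 meningeal markers tested, 1 had an unadjusted limma p under 0.05 between genotypes, and none passed adjustment. Of all genes, 2.6% had such a p for Nkx2.9LacZ/LacZ against Nkx2.9+/+, 2.78% for Nkx2.9LacZ/+ against Nkx2.9+/+ and 2.64% between the mutants. Foxc1, a transcription factor of meningeal fibroblasts and mural cells, read 25.9, 25.3 and 23.6 normalized counts in Nkx2.9+/+, 24.4, 21.3 and 18.8 in Nkx2.9LacZ/+ and 10.5, 12.8 and 12.9 in Nkx2.9LacZ/LacZ. It was lower in Nkx2.9LacZ/LacZ than in Nkx2.9+/+ by a log2 difference of -0.99 (SE 0.32, unadjusted limma p = 0.00677, adjusted p = 1.00, exact permutation p = 0.1) and than in Nkx2.9LacZ/+ by -0.78 (unadjusted limma p = 0.0258, exact permutation p = 0.1). The other tested markers of the list were not lower in Nkx2.9LacZ/LacZ than in Nkx2.9+/+, with a difference of 0.67 (SE 0.48) for Dpp4 and 0.49 (SE 0.85) for Dcn, and the median of the 3 was 0.49. Between the mutants the difference was 0.20 (SE 0.48) for Dpp4 and -0.93 (SE 0.85) for Dcn, with a median of -0.78 for the 3. The summed meningeal list was 31.0 to 66.2 in Nkx2.9+/+, 51.4 to 71.7 in Nkx2.9LacZ/+ and 44.7 to 48.5 in Nkx2.9LacZ/LacZ. The sums of the mutants did not overlap, while those of Nkx2.9+/+ overlapped both. Other markers with an unadjusted limma p under 0.05 were Kl, of the choroid plexus (-1.25 in Nkx2.9LacZ/LacZ against Nkx2.9+/+), Slco1c1, an endothelial transporter (-0.59 in Nkx2.9LacZ/+ against Nkx2.9+/+), and C1qb, of microglia (-1.46 in Nkx2.9LacZ/LacZ against Nkx2.9LacZ/+). The part of Foxc1 in the values of Col1a1, Col3a1 and Col14a1 was not tested.

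The genes that build and bind collagen were read from lists of their own. The enzymes that fold and modify collagen chains, led by P4hb, Mia3 and Colgalt1, had 18 genes tested. Of these, P4ha2, a prolyl hydroxylase subunit, was lower at an unadjusted limma p under 0.05 in Nkx2.9LacZ/LacZ (-1.04) and in Nkx2.9LacZ/+ (-0.92) than in Nkx2.9+/+. Its highest value, 67.2, was that of the shallow library 7, and the other Nkx2.9+/+ libraries read 25.3 and 28.0. No enzyme of the list was called higher.

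Of 13 genes that process and cross-link collagen, led by Bmp1, Mmp14 and Adamts3, 1 was called lower and 1 higher in Nkx2.9LacZ/LacZ than in Nkx2.9+/+. Bmp1, which cuts the carboxyl end of procollagen, differed by -0.34, and Adamts3, which cuts the amino end of procollagen, by 0.49. Tll2, a relative of Bmp1, was called lower in Nkx2.9LacZ/+ than in Nkx2.9+/+ (-0.65). Of 13 other basement membrane proteins, led by Agrn, Pxdn and Lamc1, Hspg2 (perlecan) and Lamb2 (a laminin chain) were called lower in Nkx2.9LacZ/LacZ than in Nkx2.9+/+, by -0.45 and -0.36. None of 11 collagen receptors, led by Adgrg1, Itgb1 and Ddr1, was called in any comparison. Each of these calls is at an unadjusted limma p under 0.05, which 2.6% of all genes had for Nkx2.9LacZ/LacZ against Nkx2.9+/+, 2.78% for Nkx2.9LacZ/+ against Nkx2.9+/+ and 2.64% between the mutants. None passed adjustment, and lists of 11 to 18 genes are too short to read 1 or 2 calls against those shares.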

How the data were processed

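The authors extracted RNA from dissected E14.5 midbrains, depleted ribosomal RNA according to the methods (the labels name an mRNA protocol), sequenced 100.0-bp paired ends, aligned with HISAT2 to mm10, counted with featureCounts and divided the counts by DESeq2 size factors. The signal deposited by the authors is this normalized count. Tool versions, annotation and strand setting are not given in the sources used here. The deposited tables of the authors' comparisons hold fold changes and p-values and were not used.

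Columns carry a genotype but no replicate number. Symbols came from GENCODE M21 (GRCm38), where 51719 identifiers matched and 193 did not. Whole reads were recovered for 100% of 210686 values above 0 (tolerance 0.01). The 16993 genes whose normalized counts averaged 5 or more were compared with limma 3.58.1 in R 4.3.3 (lmFit, eBayes with a trend, 9 libraries in one fit, two-sided, Benjamini-Hochberg) on log2(normalized count + 1), which understates changes of low genes. EdgeR 4.0.16 and DESeq2 1.42.0 on the recovered reads were alternatives. On simulated reads the 3 tools recovered most, not all, of the changes that had been put in at an unadjusted p under 0.05. Intervals are at 95%, and counting error and floors of 3 reads cover counting only. Figures used matplotlib in Python.

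The genes named were the 4 highest per kb of each class, those with an unadjusted p under 0.05 or no overlap, and the 3 highest and every called gene of each other list. Col1a2 and the low type IV and beaded filament members named as partners were added after their values were seen. The members and lists were chosen with earlier results of these data known.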

Additional observations from a re-analysis of the deposited data

How the results depend on the processing

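No paired analysis was possible because the columns carry no replicate numbers. The counts and differences of collagen genes were recomputed with other pseudocounts, count minimums, scalings and tools and without each library. The correlations were recomputed with the mean of log2 values and without each library, and the class shares with another length. Values of marker and pathway genes were not recomputed. The count of collagen genes with an adjusted p under 0.05 stayed at 0 under all 18 alternatives in each comparison. The unadjusted counts moved with few genes involved. For Nkx2.9LacZ/LacZ against Nkx2.9+/+, 0 became 1 with a pseudocount of 5 or without the trend and 3 with only the 6 libraries of both genotypes, and 0 to 6 when 1 library was left out, with 6 without library 8. For Nkx2.9LacZ/+ against Nkx2.9+/+, 2 became 1 at a minimum of 20, and 1 to 5 without 1 library, with 5 without library 8, 4 without library 4 and 1 without library 6 or 7. For Nkx2.9LacZ/LacZ against Nkx2.9LacZ/+, 1 became 0 to 2 without 1 library, with 0 without library 1 or 2 and 2 without library 4. The share of all genes called under each alternative was not computed, and the causes were not tested. The median difference of the collagen genes ran from -0.22 to -0.033 without 1 library for Nkx2.9LacZ/+ against Nkx2.9+/+, from -0.087 to 0.081 for Nkx2.9LacZ/LacZ against Nkx2.9+/+, and from -0.065 to 0.16 for Nkx2.9LacZ/LacZ against Nkx2.9LacZ/+.

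Directions of small differences turned when 1 library was left out. Against Nkx2.9+/+, the range in Nkx2.9LacZ/LacZ was -0.25 to 0.10 for Col1a2 and -0.19 to 0.034 for Col4a1, and in Nkx2.9LacZ/+ it was -0.46 to 0.21 for Col25a1, -0.18 to 0.095 for Col4a2 and -0.0081 to 0.21 for Col4a1. Between the mutants it was -0.14 to 0.10 for Col2a1, -0.042 to 0.40 for Col3a1, -0.25 to 0.033 for Col4a2 and -0.31 to 0.37 for Col25a1, which was also -0.067 with edgeR and -0.063 with DESeq2. Per kb of the longest coding transcript, an alternative chosen after seeing the data, the shares were 30.1% fibrillar, 30.0% type IV, 3.77% basement membrane zone, 12.3% fibril-associated, 17.4% transmembrane and 3.20% unclassed. Depth limits library 7 most, where 3 reads are 7.76 normalized counts.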
